A study of Mus musculus with 18 samples.

Results

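The insulin-like growth factor (IGF) family was followed in the dentate gyrus of the mouse across 3 comparisons: c-Fos overexpression, and the E1 state with a hairpin named for c-Fos or with a control hairpin. Its 10 genes were the ligands Igf1 and Igf2, the receptors Igf1r and Igf2r, and the binding protein genes Igfbp2, Igfbp3, Igfbp4, Igfbp5, Igfbp6 and Igfbp7. They were chosen by symbol from the authors' deposited tables, with the fold changes and adjusted p-values of those tables already known, so the values of these genes describe them and do not serve as independent evidence. All 10 were found among 23988 genes listed in all 3 tables, and all 10 had an adjusted p in each table.

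RNA was taken from the dissected dentate gyrus, a part of the hippocampus rich in granule neurons, of 8-week-old C57BL/6 mice. The labels' protocols state 1 animal per library, and 18 libraries formed 6 groups of 3. The group cFos_OE overexpressed c-Fos and EYFP_OE a yellow fluorescent protein. The groups shRNA-cFos_E1 and shRNA-cFos_E0 carried a short hairpin RNA named for c-Fos, and shRNA-Ctrl_E1 and shRNA-Ctrl_E0 a control hairpin. The labels do not explain E0 and E1, and the deposited comparisons call the baseline sham. The sources used here do not give how the constructs were delivered, which promoter drove them or which cells carried them. c-Fos is a subunit of the transcription factor AP-1, which neurons make soon after they fire.

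IGF1 and IGF2 are secreted hormones that signal through the tyrosine kinase receptor encoded by Igf1r, which acts on the PI3K, AKT and mTOR cascade. The receptor encoded by Igf2r, which also sorts lysosomal enzymes, takes up and degrades IGF2 and has no kinase of its own. IGF binding proteins hold the ligands outside the cell, and proteases that cut them set the ligands free. In the hippocampus the family is known for roles in growth of new neurons, synapses and memory.

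The deposited tables hold only comparisons, each over 6 libraries, with a mean normalized count, a log2 fold change, its standard error (SE) and a Benjamini-Hochberg adjusted p from DESeq2. No value of a single library was used, so the spread between animals enters only through the SE, the depth per library is unknown, and overlap between groups cannot be given. Group levels quoted here, in normalized counts, were computed from the mean and the fold change in the authors' deposited tables and carry no error. A gene is said to have risen or fallen where the adjusted p was under 0.05. Fos was 3.34 ± 0.20 (SE) higher on the log2 scale in cFos_OE than in EYFP_OE in the authors' deposited table, and this fixed the direction of that table. Its E1 response was 2.33 ± 0.15 with shRNA-cFos and 3.36 ± 0.14 with shRNA-Ctrl in the authors' deposited tables. With overexpression the SE of Fos lay near the largest of that table (0.205). The deposited fold changes are shrunken toward 0, so the size of that Fos change is uncertain and cannot be set beside the E1 responses. All 16 granule neuron markers had mean counts above 0 in each of the 3 tables.

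Igfbp6 and Igfbp5 are the binding proteins on which the results below turn, and the 250 bases before their starts are shown because AP-1 acts at DNA. The sequences are from RefSeq on GRCm38.p6, read 5′ to 3′ on the strand of the gene, at chr15:102143936-102144185 (plus strand) for Igfbp6 and chr1:72874866-72875115 (minus strand) for Igfbp5.

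Igfbp6: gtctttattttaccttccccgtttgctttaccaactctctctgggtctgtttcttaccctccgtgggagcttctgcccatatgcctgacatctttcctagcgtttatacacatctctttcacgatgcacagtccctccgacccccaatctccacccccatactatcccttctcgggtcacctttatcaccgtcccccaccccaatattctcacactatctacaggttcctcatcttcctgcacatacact

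Igfbp5: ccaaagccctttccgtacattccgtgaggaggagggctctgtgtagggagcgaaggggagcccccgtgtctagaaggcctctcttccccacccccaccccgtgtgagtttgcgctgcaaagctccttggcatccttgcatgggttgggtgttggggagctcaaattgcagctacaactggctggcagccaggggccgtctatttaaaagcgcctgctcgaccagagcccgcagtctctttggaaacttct

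Neither window holds an AP-1 motif, searched on both strands as TGAGTCA or TGACTCA, or the cyclic AMP response element TGACGTCA, so neither has capitals. The 10 genes matched 14 such windows, since some genes have several starts, and 1 window held an AP-1 motif and 0 the response element. Of 32851 windows over all genes, 4.46% held the AP-1 motif and 1.55% the response element. The match lay before an inner start of Igfbp2 with its first base 39 bases upstream, and the 30 bases around it, at chr1:72825337-72825366 on the plus strand, show it in capitals.

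Igfbp2: gaaacaaaactTGAGTCAgtgaccaccggt

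The motif count covers these windows only and says nothing of sites elsewhere.

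With c-Fos overexpression, Igfbp6 rose nearly to the top of the table, while Igfbp5, Igfbp4 and Igf1r fell by modest amounts. The authors' deposited table thus held 1 risen and 3 fallen of 10 genes, and in it 7.10% of the 15827 genes tested rose and 5.86% fell. The median change of the 10 genes was 0.12 on the log2 scale and that of all tested genes was -0.01, both from the authors' deposited table.

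Igfbp6 encodes a binding protein with a marked preference for IGF2 over IGF1. Its level was 577 normalized counts in cFos_OE and 118 in EYFP_OE, computed from the authors' deposited table. The change was 4.87-fold, a log2 value of 2.28 ± 0.13 (SE; adjusted p = 4.83e-63; 3 libraries per group) in the authors' deposited table. By p it ranked 8 among the genes tested there. Per kilobase of exon, the level of Igfbp6 was second among the 10 genes in cFos_OE, at 519 normalized counts, and 7th in EYFP_OE, at 107.

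Igfbp5, whose protein binds both IGFs and matrix, and Igfbp4, whose protein is cut by the protease made from Pappa, moved the other way. The level of Igfbp5 was 4425 in cFos_OE and 6178 in EYFP_OE, with a log2 change of -0.48 ± 0.09 (adjusted p = 3.85e-06), in the authors' deposited table. Igfbp4 stood at 444 in cFos_OE and 671 in EYFP_OE, a log2 change of -0.60 ± 0.13 (adjusted p = 0.000116), in the authors' deposited table. Both binding protein genes were thus lower in cFos_OE.

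Igf1r, the signalling receptor, fell as well, with 1072 normalized counts in cFos_OE and 1426 in EYFP_OE and a log2 change of -0.41 ± 0.09 (adjusted p = 4.44e-05) in the authors' deposited table. The other 6 genes did not pass. Igf2r, the clearance receptor for IGF2, had a log2 change of 0.16 ± 0.10 (adjusted p = 0.392), and Igfbp7, whose protein binds IGFs weakly, one of 0.16 ± 0.13 (adjusted p = 0.534), in the authors' deposited table. The ligands had log2 changes of 0.15 ± 0.16 for Igf1 (adjusted p = 0.686) and 0.11 ± 0.20 for Igf2 (adjusted p = 0.855) in the authors' deposited table. Igfbp2 changed by 0.13 ± 0.14 (adjusted p = 0.701) and Igfbp3 by -0.01 ± 0.16 (adjusted p = 0.992) on the log2 scale in the authors' deposited table. The 95% intervals of these 6 genes lay between -0.31, the lower end for Igfbp3, and 0.51, the upper end for Igf2.

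**Figure D1:**
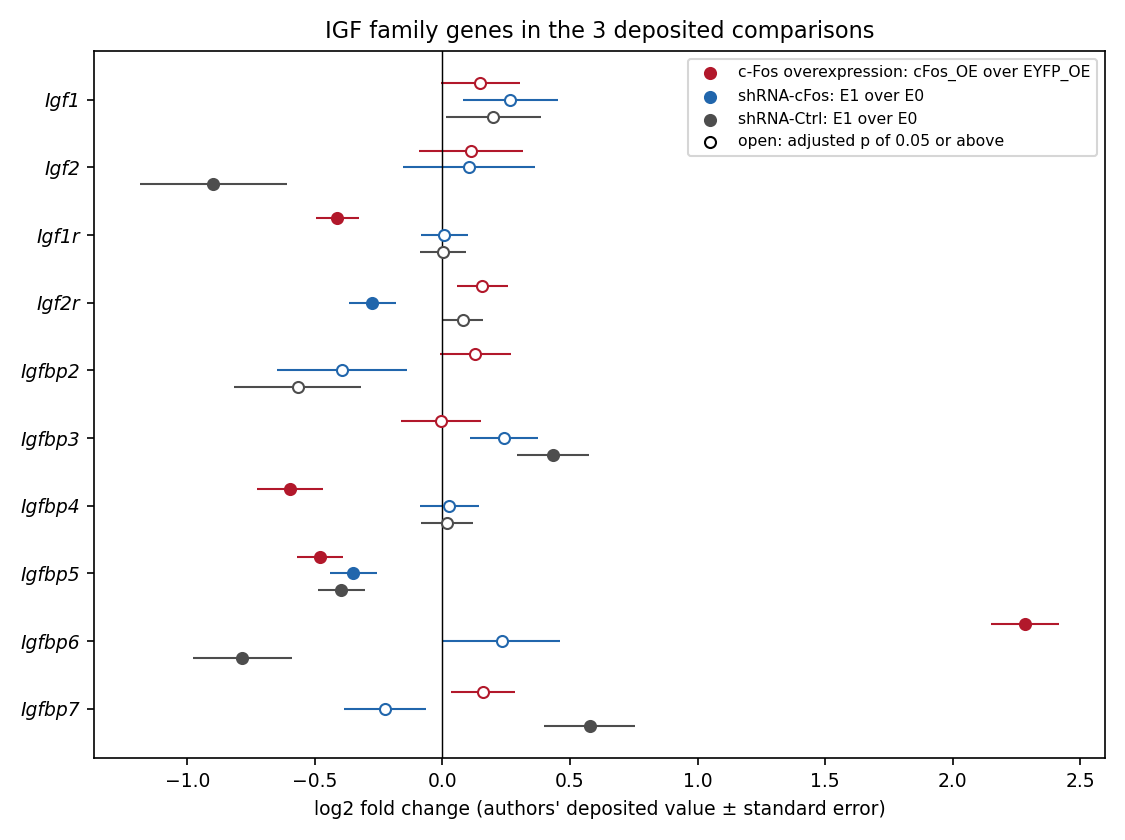
Log2 fold change of each gene (x axis) in cFos_OE over EYFP_OE (red), E1 over E0 with shRNA-cFos (blue) and E1 over E0 with shRNA-Ctrl (grey), as points with bars of 1 SE from the authors' deposited tables; filled points have an adjusted p under 0.05. Igfbp6 with overexpression lies far to the right at 2.28, and only Igfbp5 has 3 filled points, all left of 0.

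The dentate gyrus holds several cell types, and in bulk RNA fewer cells of a type and less RNA per cell cannot be told apart. Fibroblasts of the meninges and around vessels express Igfbp6 and Igf2 in the brain. Of their 15 markers, 1 (Col1a1) rose and 1 (Ogn) fell with overexpression, with a median log2 change of -0.07 and summed levels of 4829 in cFos_OE and 4508 in EYFP_OE, computed from the authors' deposited table. Microglial markers, 9 of 14 of which rose and 0 fell, had a median of 0.49 and sums of 14158 in cFos_OE and 10778 in EYFP_OE, from the authors' deposited table. Granule neuron markers, 1 of 16 risen and 5 fallen, had a median of -0.21 and sums of 29817 in cFos_OE and 33347 in EYFP_OE, from the authors' deposited table. Endothelial markers, 1 of 12 risen and 4 fallen, had a median of -0.23, and oligodendrocyte markers, 0 of 12 risen and 1 fallen, one of -0.30, from the authors' deposited table. Medians were also below 0 for interneurons (-0.21), pyramidal and mossy neurons (-0.15), and pericytes and smooth muscle (-0.15). They were above 0 for choroid plexus (0.11) and astrocytes (0.07). Most lists thus had a median below 0, as were the changes of Igfbp4, Igfbp5 and Igf1r, and several were above 0, as was that of Igfbp6. The sign of a median therefore singles out no cell type. The part of these cells in the results for Igfbp4, Igfbp5, Igf1r and Igfbp6 was not tested.

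At E1 with shRNA-cFos, Igfbp5 and Igf2r fell. That is 0 of 10 genes risen and 2 fallen, beside 16.3% and 11.7% of the 14388 genes tested in the authors' deposited table. Igfbp5 had 3262 normalized counts in shRNA-cFos_E1 and 4154 in shRNA-cFos_E0, a log2 change of -0.35 ± 0.09 (adjusted p = 0.00122) in the authors' deposited table. Igf2r had 1042 in shRNA-cFos_E1 and 1260 in shRNA-cFos_E0, a log2 change of -0.27 ± 0.09 (adjusted p = 0.0163) in the authors' deposited table. Both were decreases of less than 1.5-fold, and the median of the 10 genes was 0.02, against 0.00 for all tested genes, on the log2 scale.

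The other 8 genes did not pass with shRNA-cFos. Igf1r and Igfbp4 were close to 0, with log2 changes of 0.01 ± 0.09 (adjusted p = 0.963) and 0.03 ± 0.12 (adjusted p = 0.891) in the authors' deposited table. Igfbp2, which is made by glia and the choroid plexus, had the lowest value, -0.39 ± 0.26 (adjusted p = 0.256), in the authors' deposited table. Igf1 had 0.27 ± 0.19 (adjusted p = 0.297), and Igfbp3, the main carrier of IGFs in blood, had 0.24 ± 0.13 (adjusted p = 0.168), in the authors' deposited table. Igf2 had 694 normalized counts in shRNA-cFos_E1 and 645 in shRNA-cFos_E0, with a log2 change of 0.10 ± 0.26 (adjusted p = 0.807) in the authors' deposited table. These genes thus had small or imprecise changes in this arm. Igfbp6 had 64.4 in shRNA-cFos_E1 and 54.8 in shRNA-cFos_E0, a log2 change of 0.23 ± 0.23 (adjusted p = 0.488), in the authors' deposited table. Igfbp7 had 258 in shRNA-cFos_E1 and 301 in shRNA-cFos_E0, a log2 change of -0.22 ± 0.16 (adjusted p = 0.310), in the authors' deposited table.

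With shRNA-Ctrl, E1 brought lower Igf2, Igfbp6 and Igfbp5 and higher Igfbp7 and Igfbp3. That is 2 risen and 3 fallen of 10 genes, beside 16.8% and 16.2% of the 15675 genes tested in the authors' deposited table. The median of the 10 was 0.01 and that of all tested genes 0.01 on the log2 scale.

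Igf2 had 714 normalized counts in shRNA-Ctrl_E1 and 1330 in shRNA-Ctrl_E0, a log2 change of -0.90 ± 0.29 (adjusted p = 0.00766) in the authors' deposited table. Its SE was 3.33 times the median SE of genes of like mean count, and the fold change grew to -1.49 ± 0.47 when the shrinkage of the authors' fold changes toward 0 was undone, a step that is uncertain for so large an SE. Igfbp6 had 64.8 in shRNA-Ctrl_E1 and 112 in shRNA-Ctrl_E0, a log2 change of -0.78 ± 0.20 (adjusted p = 0.000432), in the authors' deposited table, and its SE was close to that of its peers, at 1.11 times. The direction of Igfbp6 at E1 with shRNA-Ctrl was thus opposite to its direction with c-Fos overexpression. Fos was higher in both comparisons, and its part in these changes of Igfbp6 was not tested.

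Igfbp5 again fell, to 4955 in shRNA-Ctrl_E1 against 6519 in shRNA-Ctrl_E0, a log2 change of -0.40 ± 0.09 (adjusted p = 0.000111) in the authors' deposited table. Among the 10 genes, Igfbp5 alone passed in all 3 tables, and it was lower in each. Per kilobase of exon it had the highest level of the family in every group, from 543 normalized counts in shRNA-cFos_E1 to 1085 in shRNA-Ctrl_E0, while Igf1 had the lowest, from 8.3 in shRNA-cFos_E0 to 14.3 in cFos_OE. These levels carry no error, so neighbours in the order cannot be said to differ.

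Igfbp7 rose, with 501 normalized counts in shRNA-Ctrl_E1 and 336 in shRNA-Ctrl_E0, a log2 change of 0.58 ± 0.18 (adjusted p = 0.00548) in the authors' deposited table. Its SE was wide, at 1.72 times the median SE of genes of like mean count. Igfbp3 rose too, with 419 in shRNA-Ctrl_E1 and 310 in shRNA-Ctrl_E0, a log2 change of 0.43 ± 0.14 (adjusted p = 0.00933) in the authors' deposited table. The exons of Igfbp7 share 85 of 1209 bases with Polr2b on the other strand. Those of Igf2 share 3596 of 5249 bases with the readthrough model Gm49394 on the same strand and 98 with the antisense Igf2os, in a later annotation than the authors' build. The sources used here do not say whether counting used strand, so reads shared by these genes cannot be told apart.

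The remaining genes of the family did not pass with shRNA-Ctrl. Igfbp2 came nearest, at -0.57 ± 0.25 (adjusted p = 0.0638), with an SE 2.68 times that of its peers, in the authors' deposited table. Igf1 had a log2 change of 0.20 ± 0.19 (adjusted p = 0.441) and Igf2r one of 0.08 ± 0.08 (adjusted p = 0.477) in the authors' deposited table. Igf1r, at 0.00 ± 0.09 (adjusted p = 0.989), and Igfbp4, at 0.02 ± 0.10 (adjusted p = 0.921), were near 0 in the authors' deposited table, as they were with shRNA-cFos.

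**Figure D2:**
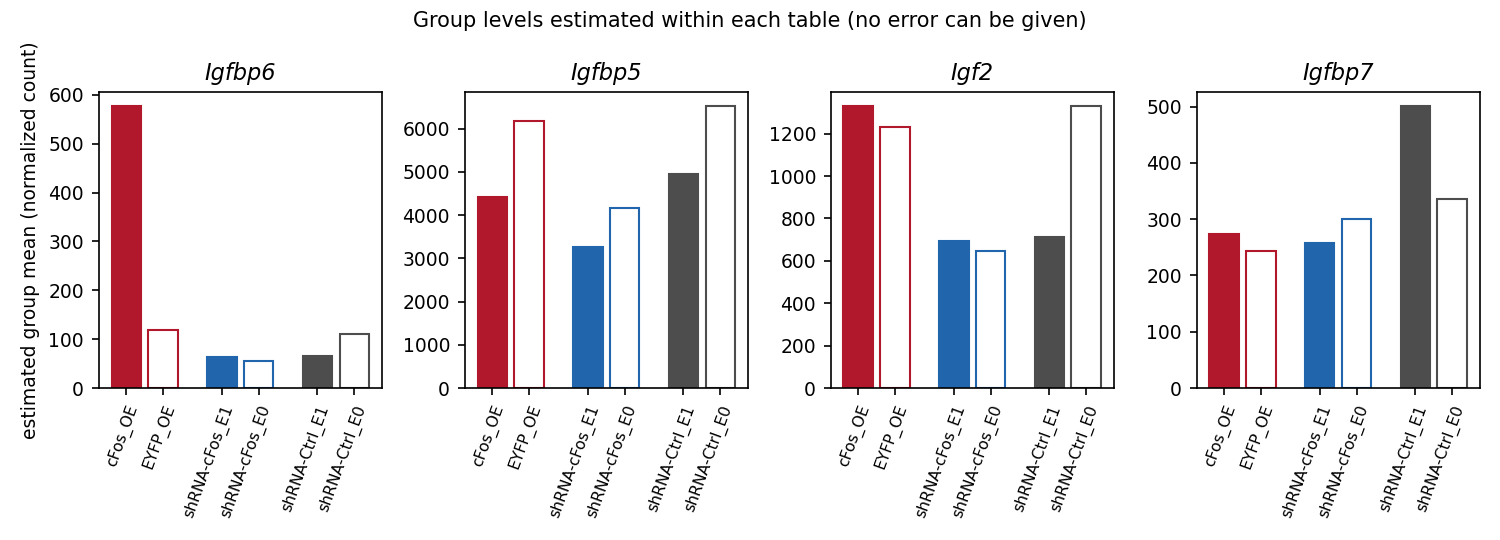
Estimated group mean in normalized counts (y axis, from 0, a scale per gene) of Igfbp6, Igfbp5, Igf2 and Igfbp7, with cFos_OE and the E1 groups as filled bars and EYFP_OE and the E0 groups as open bars; no error can be given and pairs come from separately normalized tables. Igfbp6 stands out in cFos_OE at 577, and Igfbp5 is lower in the filled bar of each pair.

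The response itself differed between the hairpins for 4 of the 10 genes. The difference, shRNA-cFos minus shRNA-Ctrl, came from the authors' deposited tables by subtraction, with a 2-sided normal p adjusted by Benjamini-Hochberg over 14386 genes, of which 12.9% had a higher and 11.0% a lower response. The 2 tables share no library. The 10 genes had a median difference of 0.03 and all genes 0.01 on the log2 scale.

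Igfbp6 and Igf2 fell at E1 with shRNA-Ctrl and did not pass with shRNA-cFos, and the difference was 1.02 ± 0.30 (adjusted p = 0.00555) for Igfbp6 and 1.002 ± 0.38 (adjusted p = 0.0409) for Igf2. The call of Igf2 was lost, with an adjusted p of 0.0534, when the adjustment ran over every gene with a p. Igfbp7 had the opposite difference, -0.80 ± 0.24 (adjusted p = 0.00619), as did Igf2r, at -0.35 ± 0.12 (adjusted p = 0.0210). Igfbp6 and Igf2 thus had a higher response with shRNA-cFos than with shRNA-Ctrl, and Igfbp7 and Igf2r a lower one.

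For the other 6 genes the difference did not pass, and its 95% interval shows what sizes it allows on the log2 scale. The intervals ran from -0.21 to 0.30 for Igfbp5, from -0.24 to 0.26 for Igf1r and from -0.29 to 0.31 for Igfbp4. For Igf1 the interval was -0.45 to 0.58, for Igfbp3 -0.57 to 0.19 and for Igfbp2 -0.52 to 0.87. The intervals of Igf1, Igfbp3 and Igfbp2 thus include differences as large as that found for Igf2r.

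**Figure D3:**
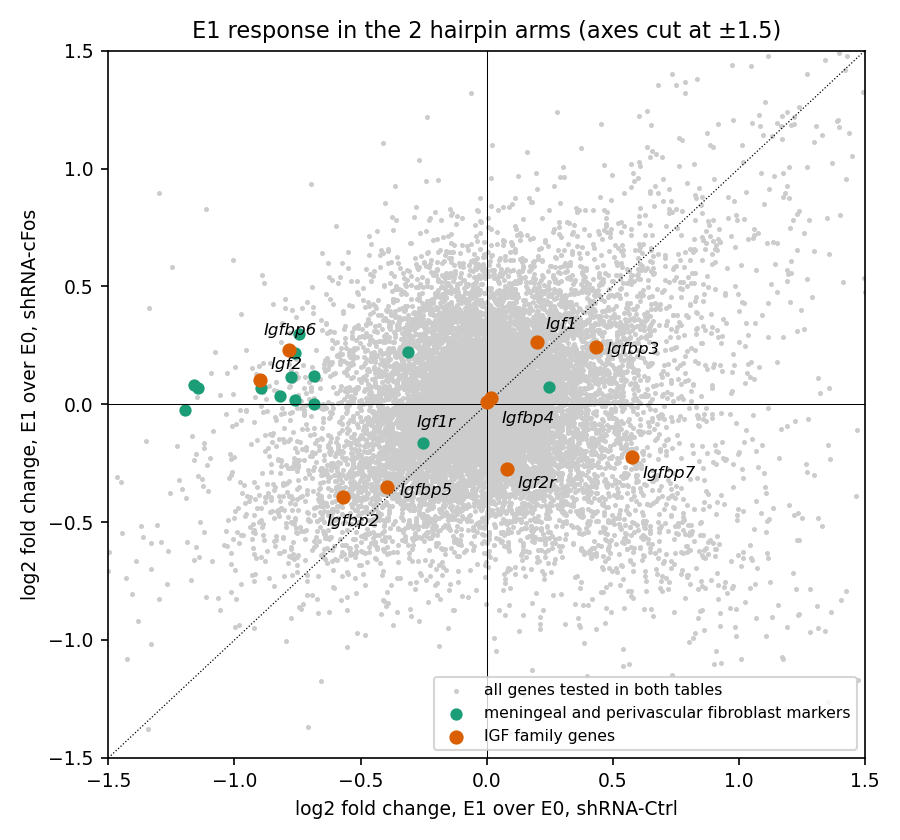
Log2 fold change of E1 over E0 with shRNA-cFos (y axis) against that with shRNA-Ctrl (x axis), for the IGF family (orange), meningeal and perivascular fibroblast markers (green) and all genes tested in both tables (grey), with the line of equal response dotted and axes cut at 1.5. Igf2 and Igfbp6 lie far left and slightly above 0, among most of the fibroblast markers.

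Like most of the granule neuron markers given below, fibroblast markers moved with Igf2 and Igfbp6 in the shRNA-Ctrl arm. Of 15 markers, 11 fell and 1 (Pdgfra, which oligodendrocyte precursors also express) rose, with a median log2 change of -0.76 and sums of 3171 in shRNA-Ctrl_E1 and 4238 in shRNA-Ctrl_E0, computed from the authors' deposited table. With shRNA-cFos 0 of 14 tested rose or fell, with a median of 0.07 and sums of 2932 in shRNA-cFos_E1 and 2766 in shRNA-cFos_E0, computed from the authors' deposited table. The difference of the responses was called higher for 7 of 14 and lower for 0, with a median of 0.87. Examples in the shRNA-Ctrl arm were the collagen gene Col1a2, at -0.82 ± 0.29 (adjusted p = 0.0180), and the transporter gene Slc6a13, at -1.16 ± 0.29 (adjusted p = 0.000502), in the authors' deposited table. None of the 15 was at 0, and the part of these cells in the results for Igf2 and Igfbp6 was not tested.

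With shRNA-Ctrl, 9 of 15 fibroblast markers had an SE over 1.5 times that of genes of like mean, with a median ratio of 1.84. With shRNA-cFos 4 of 14 did (median ratio 1.19), and with overexpression 5 of 15 (1.31). The SE of Igf2 stayed wide there, at 2.54 times that of its peers with shRNA-cFos and 2.51 times with overexpression. Wide SEs were not particular to fibroblast markers. Among oligodendrocyte markers 6 of 12 were over 1.5 times with shRNA-Ctrl (median ratio 1.52). With shRNA-cFos 5 of 12 were (1.38), and with overexpression 8 of 12 (2.15). For choroid plexus markers the median ratio was 0.99 with shRNA-Ctrl. Choroid plexus markers, another possible source of Igf2 and Igfbp2, had medians of -0.38 with shRNA-Ctrl (0 risen and 2 fallen of 10 tested), -0.12 with shRNA-cFos (0 and 0 of 7) and 0.11 with overexpression (2 and 0 of 14).

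**Figure D4:**
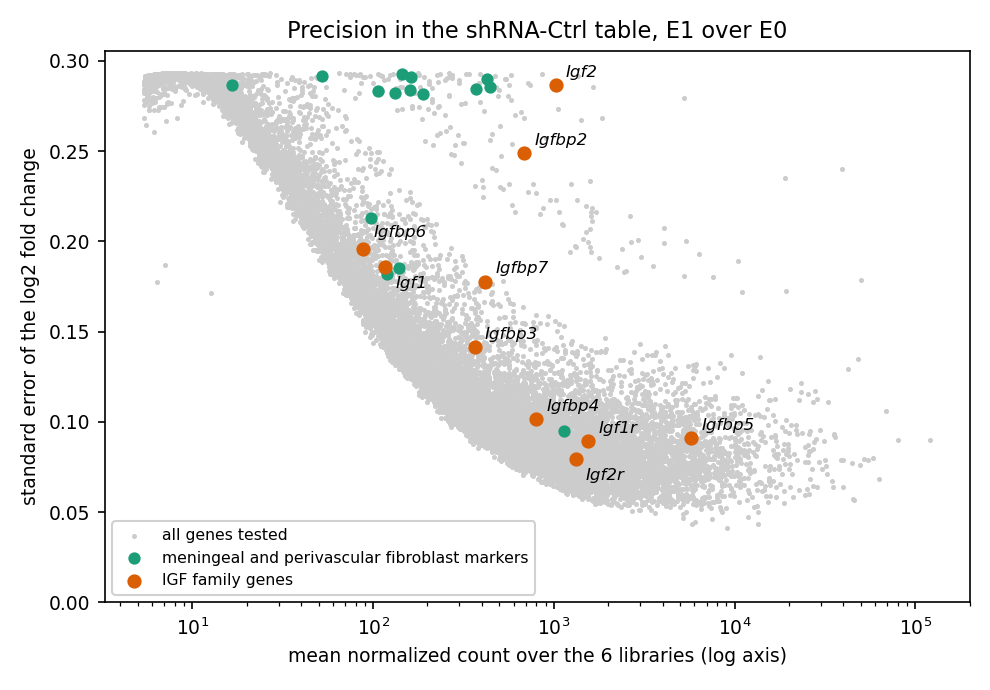
Standard error of the log2 fold change (y axis) against the mean normalized count over the 6 libraries (x axis, log scale) in the authors' deposited shRNA-Ctrl table, for the IGF family (orange), fibroblast markers (green) and all tested genes (grey). Igf2, at the height of many fibroblast markers, and Igfbp2 lie well above the band of genes of like mean, while Igfbp6 and Igfbp5 lie within the band.

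Igfbp7 is a gene of blood vessel lining, and endothelial markers were 5 risen and 0 fallen of 12 with shRNA-Ctrl, with a median of 0.24 and sums of 8959 in shRNA-Ctrl_E1 and 6432 in shRNA-Ctrl_E0, from the authors' deposited table. With shRNA-cFos 2 rose and 1 fell, with a median of -0.09 and sums of 6197 in shRNA-cFos_E1 and 4672 in shRNA-cFos_E0, and the difference was called lower for 3 of 12. Pericyte markers had medians of -0.07 with shRNA-cFos (1 of 10 fallen) and 0.04 with shRNA-Ctrl (1 of 10 risen). With overexpression 1 of 10 pericyte markers fell. The part of vessel cells in the result for Igfbp7 was not tested.

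Igf1, which microglia are known to make, did not pass in any table. Its 95% intervals on the log2 scale were -0.16 to 0.45 with overexpression, -0.10 to 0.63 with shRNA-cFos and -0.16 to 0.56 with shRNA-Ctrl. Microglial markers moved in each table. With shRNA-cFos 1 of 14 rose and 9 fell, with a median of -0.45, and with shRNA-Ctrl 11 rose and 0 fell, with a median of 0.35, in the authors' deposited tables. Granule neuron markers were 9 risen and 0 fallen of 16 with shRNA-cFos, with sums of 24035 in shRNA-cFos_E1 and 18744 in shRNA-cFos_E0, computed from the authors' deposited table. With shRNA-Ctrl 1 rose and 11 fell, with sums of 31309 in shRNA-Ctrl_E1 and 39644 in shRNA-Ctrl_E0, computed from the authors' deposited table. The difference of the responses was called higher for 13 of 16 granule neuron markers and lower for 0, with a median of 0.79. A higher response was thus not particular to the fibroblast markers. For microglial markers the difference was higher for 0 and lower for 10 of 14, with a median of -0.79. The part of granule neurons and microglia in the results for the family was not tested.

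Levels set across the hairpin tables are rough, since the tables were normalized separately and were aligned by the median log2 ratio of 12406 genes at E0 (-0.43). At E0 the log2 ratio of shRNA-cFos over shRNA-Ctrl was -0.59 for Igfbp6 and -0.61 for Igf2, and at E1 it was 0.42 for Igfbp6 and 0.39 for Igf2, computed from the authors' deposited tables. For Igfbp7 it was 0.28 at E0 and -0.53 at E1. Without the alignment the E1 ratios of Igfbp6 and Igf2 were -0.01 and -0.04, and the E0 ratios -1.03 and -1.04, so these values depend on the scaling and no error can be given for them.

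Genes around the family were read from 3 lists. Their counts, and those of the marker lists, stand beside the shares over all tested genes in the authors' deposited tables. With overexpression 7.10% rose and 5.86% fell, with shRNA-cFos 16.3% and 11.7%, and with shRNA-Ctrl 16.8% and 16.2%. For the difference of the responses 12.9% were higher and 11.0% lower. Of other genes of the IGF system, 4 of 19 tested rose and 1 fell with overexpression per the authors' deposited table. Igfbpl1, a binding-protein-like gene of immature neurons, rose by 0.79 ± 0.14 on the log2 scale (adjusted p = 1.09e-06) and Pappa, the protease gene for IGFBP4, by 0.62 ± 0.20 (adjusted p = 0.0166), in the authors' deposited table. Stc1, a stanniocalcin that inhibits that protease, was among these too, fell by 0.52 on the log2 scale (adjusted p = 0.0180) in the authors' deposited table, and was picked for mention after its value was seen. Igfn1, at 2.16 ± 0.20 (adjusted p = 4.38e-24) in the authors' deposited table, has an IGF-like symbol and encodes an immunoglobulin-domain protein. Igfbp1 had a mean of at most 0.850 normalized counts and no test in any table.

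With shRNA-cFos 6 of 16 genes of this list rose and 1 fell at E1, and with shRNA-Ctrl 5 of 17 rose and 1 fell, in the authors' deposited tables. The risen genes include Igdcc4 in both arms and Igsf1 with shRNA-cFos, which like Igfn1 are immunoglobulin-domain genes and not IGF genes. Pcsk1, which encodes a prohormone convertase, rose by 1.07 ± 0.12 (adjusted p = 8.02e-16) with shRNA-cFos and by 1.64 ± 0.15 (adjusted p = 1.96e-24) with shRNA-Ctrl in the authors' deposited tables. Igfbpl1 rose by 0.60 ± 0.20 (adjusted p = 0.0117) with shRNA-cFos in the authors' deposited table, and its response was higher by 0.80 ± 0.27 (adjusted p = 0.0159) than with shRNA-Ctrl. The stanniocalcin genes fell in 1 arm each, Stc2 by 0.76 (adjusted p = 0.000593) with shRNA-cFos and Stc1 by 0.71 (adjusted p = 3.05e-05) with shRNA-Ctrl, in the authors' deposited tables. The response differed in 2 of 16 genes, higher for Igfbpl1 and lower for Pcsk1.

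In the signalling list, 5 of 47 genes rose and 7 fell with overexpression, 11 of 46 rose and 7 fell with shRNA-cFos, and 16 of 47 rose and 6 fell with shRNA-Ctrl, in the authors' deposited tables. Rheb, the GTPase that switches on mTOR, rose at E1 by 1.14 ± 0.09 (adjusted p = 8.32e-36) with shRNA-cFos and 1.33 ± 0.09 (adjusted p = 1.07e-47) with shRNA-Ctrl in the authors' deposited tables. The adaptor gene Irs2 rose by 0.89 ± 0.09 (adjusted p = 3.17e-21) with shRNA-cFos and 0.83 ± 0.09 (adjusted p = 2.71e-18) with shRNA-Ctrl in the authors' deposited tables. Irs1, the other main adaptor gene and picked for mention after its values were seen, fell in both arms, by 0.46 (adjusted p = 0.000531) with shRNA-cFos and by 0.49 (adjusted p = 1.98e-05) with shRNA-Ctrl, in the authors' deposited tables. The adaptor genes thus moved in opposite directions at E1.

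Feedback inhibitors differed more between the arms. The response of Socs3, an inhibitor of cytokine and insulin signalling, was lower with shRNA-cFos than with shRNA-Ctrl by 1.85 on the log2 scale (difference -1.85 ± 0.33, adjusted p = 8.12e-07), and it rose with overexpression by 0.70 ± 0.20 (adjusted p = 0.00485) in the authors' deposited table. Socs1 had a difference of -1.12 ± 0.36 (adjusted p = 0.0107), and Eif4ebp1, the translation repressor under mTOR, one of -0.998 ± 0.33 (adjusted p = 0.0134). In all, the response was higher for 6 and lower for 10 of 46.

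FoxO factors are held out of the nucleus when IGF receptors signal, and 24 of these factors and their textbook targets formed the last list. With overexpression 4 of 21 tested rose and 4 fell, and Gadd45a, a gene of DNA repair and demethylation, rose by 1.85 ± 0.18 (adjusted p = 7.99e-23) in the authors' deposited table. With shRNA-cFos 4 rose and 5 fell, and with shRNA-Ctrl 7 rose and 6 fell, in the authors' deposited tables. The ubiquitin ligase gene Fbxo32 fell in both, by 1.38 (adjusted p = 2.89e-18) with shRNA-cFos and by 1.34 (adjusted p = 2.93e-25) with shRNA-Ctrl, while Trib1 rose by 1.06 ± 0.14 (adjusted p = 9.68e-13) with shRNA-cFos and 1.78 ± 0.13 (adjusted p = 5.13e-41) with shRNA-Ctrl, in the authors' deposited tables. The cell cycle inhibitor Cdkn1a had a lower response with shRNA-cFos (difference -1.57 ± 0.28, adjusted p = 7.07e-07), as did Trib3, at -1.86 ± 0.39 (adjusted p = 4.53e-05), and the list held 2 higher and 4 lower of 21. The median log2 changes of the 3 lists lay between -0.10 and 0.21 in all comparisons, and members moved both ways.

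Genes most like a member were found by Euclidean distance over the 3 log2 fold changes, among 12208 genes tested in all tables with mean counts of at least 50, and the distance describes these 3 values only. Igf2 lay nearest to Bmp6 (distance 0.0730) and Efna2 (0.0739), Igfbp5 to Dact2 (0.0548) and Magi1 (0.0677), and Igfbp7 to Plcd4 (0.0332) and Drc1 (0.0494). Igf1r was closest to Peg13 (0.0291) and Omd (0.0603), and Igf2r to Pnpt1 (0.0124) and D17Wsu104e (0.0238). Igfbp3 was closest to Ptpn1 (0.0348) and Ccnt1 (0.0356), and Igfbp4 to Kcnh5 (0.0666) and Tmtc2 (0.0729). Igfbp6 had no such close company, with Ppl at 0.717 and Ndc1 at 0.813.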

How the data were processed

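Dentate gyrus RNA-seq of 18 libraries was used as the authors' 3 deposited tables of comparisons. The tools were TopHat2 and DESeq2 on mm9, per the submitters' processing notes. The sources used here do not give versions, counter, annotation or strand setting. Per the file headers, each deposited table gives the mean normalized count (a signal per gene over the libraries compared), the log2 fold change with its SE, the Wald score, and the deposited p-value with its Benjamini-Hochberg adjusted value. The tables hold 0 columns of values per library used here, so no library was averaged, tested or left out. Gene names that had become dates, 27 in the overexpression comparison, were left out.

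Group levels were computed from the mean and the fold change. The difference of the E1 responses was computed from the 2 log2 values and their errors by a normal approximation. The simulated data used to check the code had normal errors, so they do not test that approximation for these libraries. The standard errors level off at a maximum in each deposited table, which a normal prior around 0 would produce (its SD would be 0.41 for overexpression, 0.53 for shRNA-cFos and 0.59 for shRNA-Ctrl), so fold changes are shrunken toward 0; removing that prior was an alternative, with details chosen after seeing the data. Others were a stricter threshold, a fold minimum, another adjustment and a count minimum. Levels per kilobase used merged GENCODE M21 exons, and promoters came from a RefSeq table on GRCm38.p6.

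The 10 genes, 3 pathway lists and 10 marker lists were chosen with earlier results of these data known. All 10 genes are named; of each pathway list, up to 6 called genes of at least 1.5-fold per comparison; and the 2 genes most like each called gene. The remaining marker lists were those of astrocytes, oligodendrocytes, interneurons, and pyramidal and mossy neurons. Their genes risen and fallen, first with overexpression, then shRNA-cFos, then shRNA-Ctrl, were 3 and 1, 6 and 2, and 2 and 0 of 12 for astrocytes; 0 and 1, 0 and 4, and 1 and 1 of 12 for oligodendrocytes; 1 and 2, 9 and 0, and 10 and 0 of 14 for interneurons; and 0 and 1, 2 and 1, and 1 and 1 of 10 for pyramidal and mossy neurons, in the authors' deposited tables. Python 3.11.15, numpy 2.4.6, pandas 2.3.3, scipy 1.17.1 and matplotlib 3.10.9 were used.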

Additional observations from a re-analysis of the deposited data

Results flagged for a closer look

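The E1 response of 4 of the 10 IGF family genes differed between the hairpin arms by the test of the difference itself, adjusted over 14386 genes, of which 12.9% had a higher and 11.0% a lower response. The values below were computed from the authors' deposited tables. The difference, shRNA-cFos minus shRNA-Ctrl on the log2 scale, was 1.02 ± 0.30 for Igfbp6, 1.002 ± 0.38 for Igf2, -0.80 ± 0.24 for Igfbp7 and -0.35 ± 0.12 for Igf2r. Of 14 meningeal and perivascular fibroblast markers tested, 7 had a higher and 0 a lower response, with a median difference of 0.87. Of 16 granule neuron markers, 13 had a higher and 0 a lower response, with a median difference of 0.79. Of 14 microglial markers, 0 had a higher and 10 a lower response, with a median difference of -0.79. The part of these cells in the results for the family was not tested.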

How the results depend on the processing

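The counts of family genes called fell under a fold minimum of 1.5, to 2 of 4 with overexpression, 0 of 2 with shRNA-cFos and 2 of 5 with shRNA-Ctrl. Under an adjusted p of 0.01 they were 1 of 2 with shRNA-cFos and 2 of 4 for the difference of the responses. Over the 3 pathway lists, a fold minimum of 1.5 left 6 of 25 calls with overexpression, 9 of 34 with shRNA-cFos, 16 of 41 with shRNA-Ctrl and 15 of 24 for the difference. Without 4 immunoglobulin-domain genes, a choice made after seeing the data, the list counts were 24, 32, 40 and 24 in the same order of comparisons. The smaller counts under the first settings follow from the construction of the settings, which keep fewer genes. Within a table the log2 change of a gene could not change direction under these settings, by their construction. Only the difference of the responses could, with the prior removed, and it did so for no family gene. The call of Igf2 for the difference was lost when the adjustment covered every gene with a p (adjusted p = 0.0534). With the prior removed, Igfbp6 had a log2 change of 2.59 with overexpression, and Igf2 had -1.49 with shRNA-Ctrl and a difference of 1.66, values that are uncertain since the SE of Igf2 lay near its maximum. All 20 ratios set across the hairpin tables moved without the alignment, by the 1 constant (-0.43) that it subtracts. No paired analysis was possible because the tables hold no values per library, and leaving out each replicate was not run for the same reason. Calls therefore could not be checked against single animals.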
